A study of Mus musculus with 8 samples.

Results

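The genes described here encode the translation initiation and elongation factors of mouse cells, the proteins that start and extend each new polypeptide on the ribosome. They were taken from a table of read counts per gene by their symbols (those starting with Eif1 to Eif6, Eef1 or Eef2) and by a sum of at least 100 counts over the 8 libraries, without the Y-linked copy Eif2s3y and without symbols marked as pseudogenes. This rule was met by 57 of 33435 named genes, and all 57 passed the filter on low counts that left 11040 genes for testing. Just inside the minimum lay Eif3j2 with 151 counts, Eif5a2 with 179 and Eif2ak3 with 280. Just outside it lay Eif4e3 with 90 counts and Eif2ak2, which encodes the kinase PKR, with 66, and Eif4ebp3 had 2.

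The Trim27 group held 4 libraries of hematopoietic stem and progenitor cells (HSPCs) taken from the fetal liver of C57BL/6J mice at E14.5 and infected with a Trim27 virus. Trim27 belongs to the tripartite motif family of ubiquitin ligases. The GFP group held 4 libraries of HSPCs of that strain, age and source that were infected with a GFP control virus, called an empty vector in the design text. In both groups myeloid progenitors were sorted after infection and polyadenylated RNA was sequenced. The sources used here give neither the sorting gate, nor the promoter that drives Trim27, nor the number of animals behind a library. They do not say that libraries came from separate cultures, so p-values measure the spread between libraries, which may be technical.

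Translation begins when eIF2 carries the initiator tRNA to the small ribosomal subunit, eIF3 and the eIF4 proteins bring that subunit to the capped end of an mRNA, and eIF1, eIF1A and eIF5 govern the choice of the start codon. Elongation then runs on eEF1A, which delivers each aminoacyl-tRNA, and on eEF2, which moves the ribosome along by a codon. Blood progenitors are known to be sensitive to how fast proteins are made, and that speed is set by kinases that phosphorylate eIF2 and by the eIF4E-binding proteins that mTORC1 controls.

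Counts summed to 10551137 to 16366571 in the Trim27 libraries and 9257889 to 10747794 in the GFP libraries, and 12962 to 13283 against 11131 to 11850 genes were detected. Trim27 itself was at 268, 311, 292 and 301 CPM (counts scaled by library size after trimmed-mean correction) in Trim27 replicates 1 to 4 and at 191, 184, 177 and 171 CPM in GFP replicates 1 to 4. It was higher in the Trim27 group by a log2 fold change of 0.70 ± 0.05 (SE; edgeR quasi-likelihood test, adjusted p = 7.38e-13 after Benjamini-Hochberg over 11040 genes), which became 0.11 (adjusted p = 0.0795) once each library's trend with transcript length was removed. All 10 myeloid progenitor markers were detected, with summed levels of 1180 to 1343 CPM in the Trim27 libraries and 1641 to 1749 CPM in the GFP libraries. Of these markers 8 fell, Spi1 rose by 0.83 on the log2 scale and Cebpa did not pass. Summed erythroid markers were at 1041 to 1244 against 1520 to 1601 CPM, although of the 7 tested Gata1, Alas2 and Slc4a1 rose by 0.91, 2.06 and 2.98 on the log2 scale and the other 4 fell. Summed B cell markers were at 18.7 to 26.7 against 39.4 to 85.3 CPM. Of the 6 hepatocyte markers Alb, Ttr, Ahsg and Serpina1a had no count in any library, and the summed level came to 14.3 to 16.4 CPM in the Trim27 libraries and 1.2 to 1.7 CPM in the GFP libraries. Summed megakaryocyte markers were at 745 to 778 against 968 to 1061 CPM, although Itga2b rose by 0.61 on the log2 scale and the other 3 fell. Endothelial and stromal markers were at 25.5 to 27.2 against 28.8 to 37.1 CPM, nearly all of it Pecam1, and Cdh5, Kdr, Col3a1 and Dcn had no count in any library. T and NK cell markers were at 1.99 to 3.06 against 27.9 to 30.3 CPM, nearly all of it Lck. Macrophage markers had no count in the Trim27 libraries and at most 0.957 CPM in the GFP libraries. The part of these differences in the results was not tested, and in bulk RNA fewer cells of a type and less RNA per cell cannot be told apart.

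The translation factors as a whole took 3.62% to 3.67% of the counts in the Trim27 libraries and 3.18% to 3.29% in the GFP libraries. Elongation factors eEF1 and eEF2 made up 1.88% to 1.96% of the counts in the Trim27 libraries, against 1.65% to 1.71% in the GFP libraries. Cytosolic ribosomal protein genes, summed over 86 genes, took 18.84% ± 0.345 in the Trim27 libraries and 26.62% ± 0.0685 in the GFP libraries (SD, n = 4 each). These are shares of all counts. After TMM scaling the direction for the factors turned: their summed level was 32217 to 33617 CPM in the Trim27 libraries and 35735 to 36534 CPM in the GFP libraries, and that of eEF1 and eEF2 was 16733 to 17897 against 18533 to 19041 CPM. The ribosomal proteins were lower in the Trim27 libraries on both scales.

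At an adjusted p under 0.05 in edgeR's quasi-likelihood test, 28 of the 57 genes rose in the Trim27 group, 22 fell and 7 did not pass. Over all 11040 genes tested 85.5% passed, with 47.5% that rose and 38% that fell. Most genes of any kind thus passed, and the shares of the translation factors lay near this background. The Trim27 libraries lay wholly above the GFP libraries for 24 of the factors and wholly below them for 21, and over all genes the groups did not overlap for 80.7% (45.3% above and 35.4% below). The median log2 fold change of the factors was 0.11, beside 0.14 over all genes tested. The 7 that did not pass were Eif1a, Eif2s2, Eif3c, Eif3d, Eif4a1, Eif4e2 and Eef2k.

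**Figure D1:**
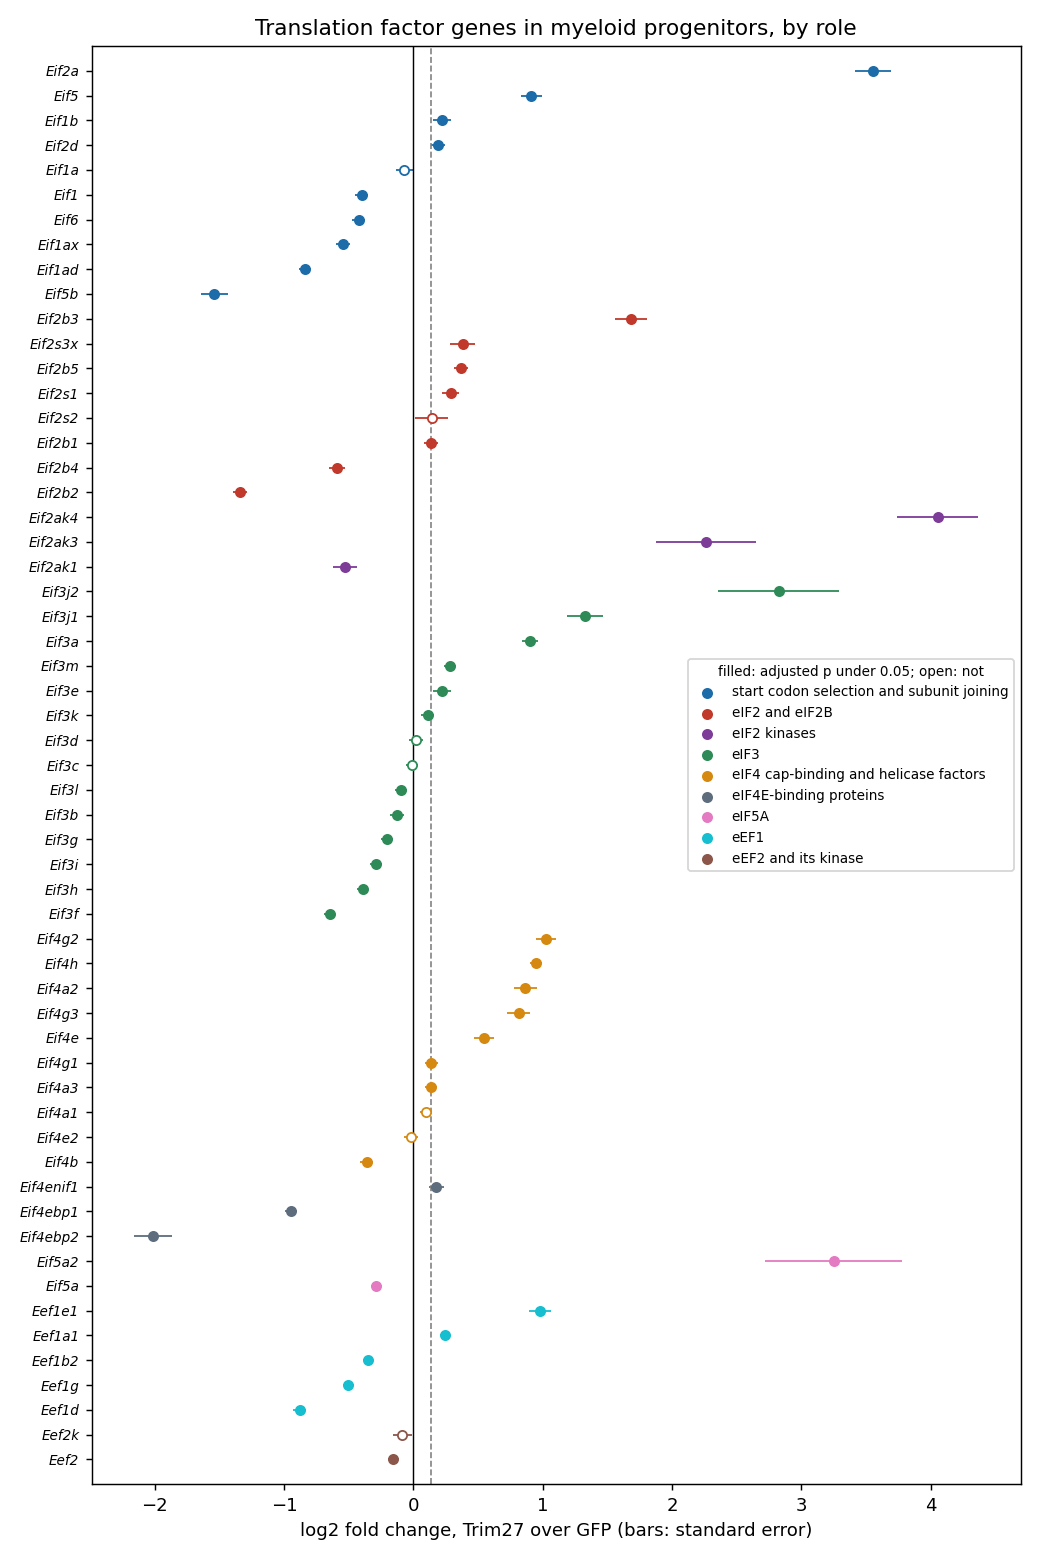
Log2 fold change of each of the 57 translation factor genes (Trim27 over GFP, x axis), ordered by role and then by size, with bars for the standard error, filled points for an adjusted p under 0.05, open points for the others, and a dashed line at the median of all genes tested. Eif2ak4, Eif2a and Eif5a2 lie farthest to the right and Eif4ebp2, Eif5b and Eif2b2 farthest to the left, and every role class with 5 or more genes has points on both sides of 0.

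Scaling mattered for small changes. With library size alone the median of all genes moved to 0.44 and that of the factors to 0.41. With each library's trend with transcript length removed, the medians were -0.07 and -0.19. Across all 20 alternative settings 12 factors rose in each one in which they were tested (21.1% of the 57, beside 33.7% of all genes tested) and 7 fell in each (12.3%, beside 19.7%). Those that rose were Eef1e1, Eif2a, Eif2ak3, Eif2ak4, Eif2b3, Eif3a, Eif3j1, Eif3j2, Eif4a2, Eif4h, Eif5 and Eif5a2. Of these Eif2ak3, Eif2ak4, Eif3j2 and Eif5a2 passed the filter on low counts only through the Trim27 libraries, where they are high, so they had to differ in this direction. Those that fell were Eef1d, Eif1ad, Eif2b2, Eif3f, Eif4ebp1, Eif4ebp2 and Eif5b.

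Among the more abundant genes a larger share fell. Of the 7 factors with a mean of 10 log2 CPM or more 1 rose and 6 fell, and of the 133 genes at that level 12.8% rose and 81.2% fell. Of the 21 factors from 8 to 10 log2 CPM 7 rose and 11 fell, with a median log2 fold change of -0.09, and the median of all 533 genes there was -0.32. The 14 factors from 6 to 8 log2 CPM had 9 that rose and 2 that fell and a median of 0.18, beside -0.17 for all 1978 genes. The 3 factors under 2 log2 CPM (Eif2ak3, Eif3j2 and Eif5a2) passed the filter on low counts only through the Trim27 libraries, so their rise says nothing of this relation.

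**Figure D2:**
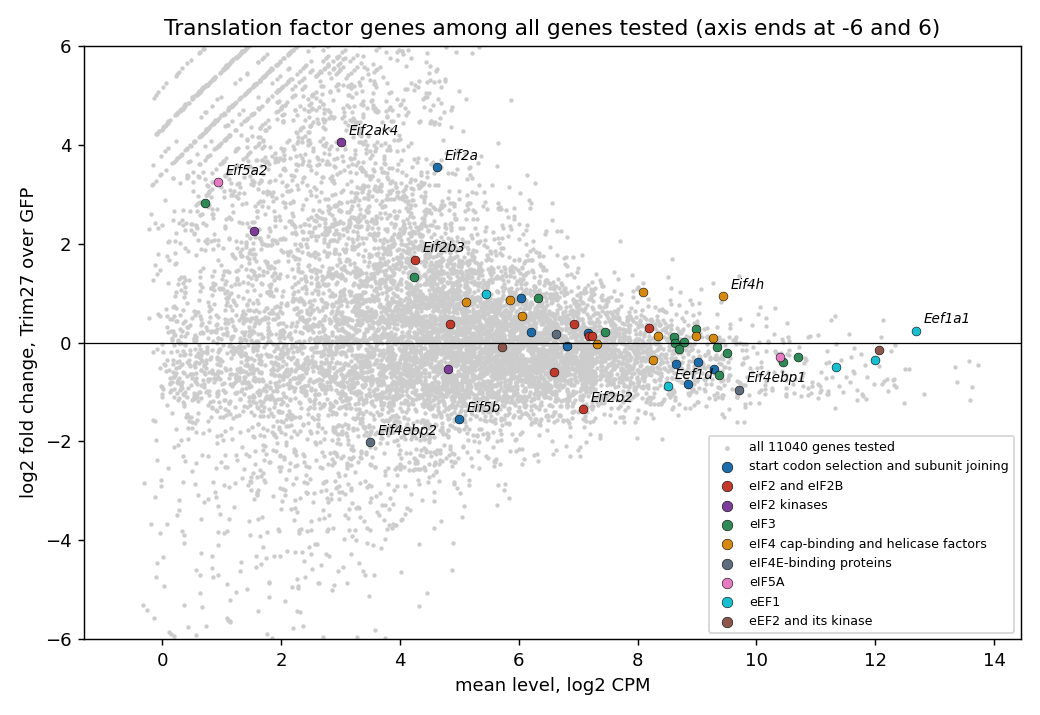
Log2 fold change (Trim27 over GFP, y axis) against mean level (log2 CPM, x axis) for all 11040 genes tested in grey and for the translation factors in colour by role. The y axis ends at -6 and 6, which leaves out 945 genes. Under 4 log2 CPM Eif2ak3, Eif2ak4, Eif3j2 and Eif5a2 lie above 0, but they passed the filter on low counts only through the Trim27 libraries. Eif4ebp2, also under 4 log2 CPM, lies below 0. Of the 7 most abundant factors only Eef1a1 lies above 0.

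Among the genes for start codon selection and subunit joining 4 of 10 rose and 5 fell (over all genes tested 47.5% rose and 38% fell), with a median log2 fold change of -0.24, which turned to 0.07 with library size alone and to 0.00 among abundant genes only. Eif2a encodes a protein separate from eIF2 that can deliver initiator tRNA by another route. It was at 45.1, 39.5, 42.0 and 40.1 CPM in Trim27 replicates 1 to 4, against 4.0, 3.09, 4.78 and 2.47 CPM in GFP replicates 1 to 4. The groups were far apart, by a log2 fold change of 3.55 ± 0.14 (SE; edgeR adjusted p = 2.12e-19), and this was the smallest p among the factors. Its exons share 1.18% of their bases with Serp1 on the other strand, and Serp1 fell by 0.81 on the log2 scale. Eif2d, whose product also brings tRNA to the small subunit, rose by 0.19 ± 0.05 but turned to -0.28 with the length trend removed.

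Eif5b, the GTPase that joins the large subunit to the small one at the start codon, had 17.1, 13.0, 17.9 and 20.1 CPM in Trim27 replicates 1 to 4 and 46.7, 50.2, 53.3 and 47.1 CPM in GFP replicates 1 to 4. No Trim27 library came near a GFP library, and the log2 fold change was -1.54 ± 0.11 (SE; edgeR adjusted p = 4.66e-14). Rev1 shares 16.8% of the exon bases of Eif5b on the other strand, and its log2 fold change was -0.09 (adjusted p = 0.769). Eif5, which makes eIF2 hydrolyse its GTP once the start codon is found, rose by 0.91 ± 0.08 to a mean of 84.6 ± 9.34 CPM in the Trim27 group, against 45.0 ± 3.92 CPM in the GFP group (SD, n = 4 each).

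Eif1ad, which encodes a protein with an eIF1A-like domain, was at 311, 329, 340 and 346 CPM in Trim27 replicates 1 to 4 and at 614, 588, 584 and 590 CPM in GFP replicates 1 to 4. The Trim27 values formed a tight group well under the GFP values (log2 fold change -0.84 ± 0.05 SE, edgeR adjusted p = 3.85e-16). Banf1, which shares 15.3% of its exon bases on the other strand, fell by 0.52. Eif1ax, the X-linked gene of the scanning factor eIF1A, had 576, 477, 492 and 483 CPM in the Trim27 libraries and 699, 793, 731 and 734 CPM in the GFP libraries. Its groups did not overlap either, although Trim27 replicate 1 stood above the other Trim27 libraries, and it fell by 0.54 ± 0.05. The autosomal copy Eif1a did not pass (log2 fold change -0.07 ± 0.07, edgeR adjusted p = 0.306), so that the ratio of Eif1a to Eif1ax counts was 0.218 ± 0.00765 in the Trim27 libraries and 0.157 ± 0.00753 in the GFP libraries. Eif1, which keeps the scanning complex open, fell by 0.40 ± 0.05, but it did not pass with library size alone (-0.10) or with the length trend fitted on abundant genes taken out (-0.05). Its paralog Eif1b rose by 0.22 ± 0.07. The ratio of Eif1b to Eif1 counts came to 0.177 ± 0.00439 in the Trim27 libraries and 0.115 ± 0.0104 in the GFP libraries, without overlap. Eif6, which keeps the large subunit from joining too soon, fell by 0.43 ± 0.05.

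eIF2 is a trimer that binds initiator tRNA with GTP, and eIF2B is the exchange factor that reloads it. Of the 8 genes for both complexes 5 rose and 2 fell, beside 47.5% and 38% of all genes, with a median log2 fold change of 0.21 that turned to -0.16 with the length trend removed, where 1 rose and 3 fell. The rises of Eif2s1, Eif2s3x and Eif2b1 turned to -0.19, -0.13 and -0.08 there. The subunits of eIF2 differed little between the groups. Eif2s1, the alpha subunit that the stress kinases phosphorylate, was at 377, 299, 292 and 311 CPM in Trim27 replicates 1 to 4 and at 248, 285, 256 and 259 CPM in GFP replicates 1 to 4. Every Trim27 library was above every GFP library, by less than 10 CPM at the closest, and the log2 fold change was 0.29 ± 0.07 (SE; edgeR adjusted p = 0.000327). Eif2s2, the beta subunit, had a log2 fold change of 0.14 ± 0.13 (adjusted p = 0.32), and Eif2s3x, the gamma subunit, rose by 0.38 ± 0.10.

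The subunits of eIF2B moved apart. Eif2b2, the beta subunit of the regulatory part that senses phosphorylated eIF2, was at 74.4, 77.4, 79.9 and 79.4 CPM in Trim27 replicates 1 to 4, against 201, 195, 206 and 187 CPM in GFP replicates 1 to 4. All Trim27 libraries lay far below the GFP libraries (log2 fold change -1.34 ± 0.05 SE, edgeR adjusted p = 3.6e-19). Eif2b4, the delta subunit of the same part, had 71.3, 76.6, 81.5 and 81.4 CPM in the Trim27 libraries and 111, 117, 116 and 125 CPM in the GFP libraries. It also fell without overlap, by 0.59 ± 0.06, and Snx17, with which it shares 7.85% of its exon bases on the other strand, rose by 0.29. Eif2b1, the alpha subunit of the regulatory part, rose by 0.14 ± 0.06, but its call was lost without Trim27 replicate 2, 3 or 4 (0.08 to 0.10) and without GFP replicate 3 or 4 (0.12 and 0.13).

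The catalytic part of eIF2B is made of the gamma and epsilon subunits. Eif2b3, the gamma subunit, was at 26.2, 27.0, 30.8 and 24.3 CPM in Trim27 replicates 1 to 4 and at 8.11, 9.58, 7.53 and 8.53 CPM in GFP replicates 1 to 4. The lowest Trim27 library was more than 10 CPM above the highest GFP library, and the log2 fold change was 1.68 ± 0.13 (SE; edgeR adjusted p = 3.24e-13). Eif2b5, the epsilon subunit that carries the exchange activity, rose by 0.37 ± 0.06, but with the length trend removed its log2 fold change was 0.03 and it did not pass (edgeR adjusted p = 0.649). Ratios of counts within a library do not depend on the scaling between libraries. They do keep any group difference in the trend with transcript length, since genes of a pair differ in length (Eif2b3 3754 bases, Eif2b2 1605). The ratio of Eif2b3 to Eif2b2 was 0.348 ± 0.0326 in the Trim27 libraries and 0.0429 ± 0.00554 in the GFP libraries, and that of Eif2b5 to Eif2b2 was 1.77 ± 0.0988 in the Trim27 libraries and 0.541 ± 0.0359 in the GFP libraries (SD, n = 4 each). For both ratios the groups were wholly separate. The 18 ratios computed in all were chosen after the values were seen, and they are given without a test.

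Both eIF2B genes that fell carry an ETS core motif (CCGGAAGT, searched on both strands) close to the annotated start, and their promoters are shown for that reason, beside that of Eef1b2, which fell and carries it too. The windows come from RefSeq (GRCm38.p6), which listed a promoter from 250 bases before to 50 after the start for 46 of the 57 factors, and capitals mark the motif. They are chr12:85219486-85219515 on the plus strand, chr5:31193120-31193149 on the minus strand and chr1:63176821-63176850 on the plus strand.
Eif2b2: cctctctcggcCCGGAAGTgaaacagtgct
Eif2b4: cccagtgcacgCCGGAAGTtgtagtccgct
Eef1b2: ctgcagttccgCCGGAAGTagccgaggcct

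The motif stood in 9 of the 46 promoters (19.6%), in 10.1% of the promoters of 7785 tested genes and in 4.31% of all 27025 promoters. The median log2 fold change of the 9 factors with it was -0.29 and that of the 37 without it was 0.18. Among those 9 Eif5a2 carries 2 such sites and rose, Eif4e2 and Eif3d did not pass, and Eif5a, Eif3l and Eif2ak1 fell. Over the tested genes the medians were 0.12 with the motif and 0.25 without it. In the promoters of the factors no site of 1 motif searched overlapped a site of another. The match is a description of letters in these windows, and RefSeq starts may lie some bases from the start used in these cells.

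**Figure D3:**
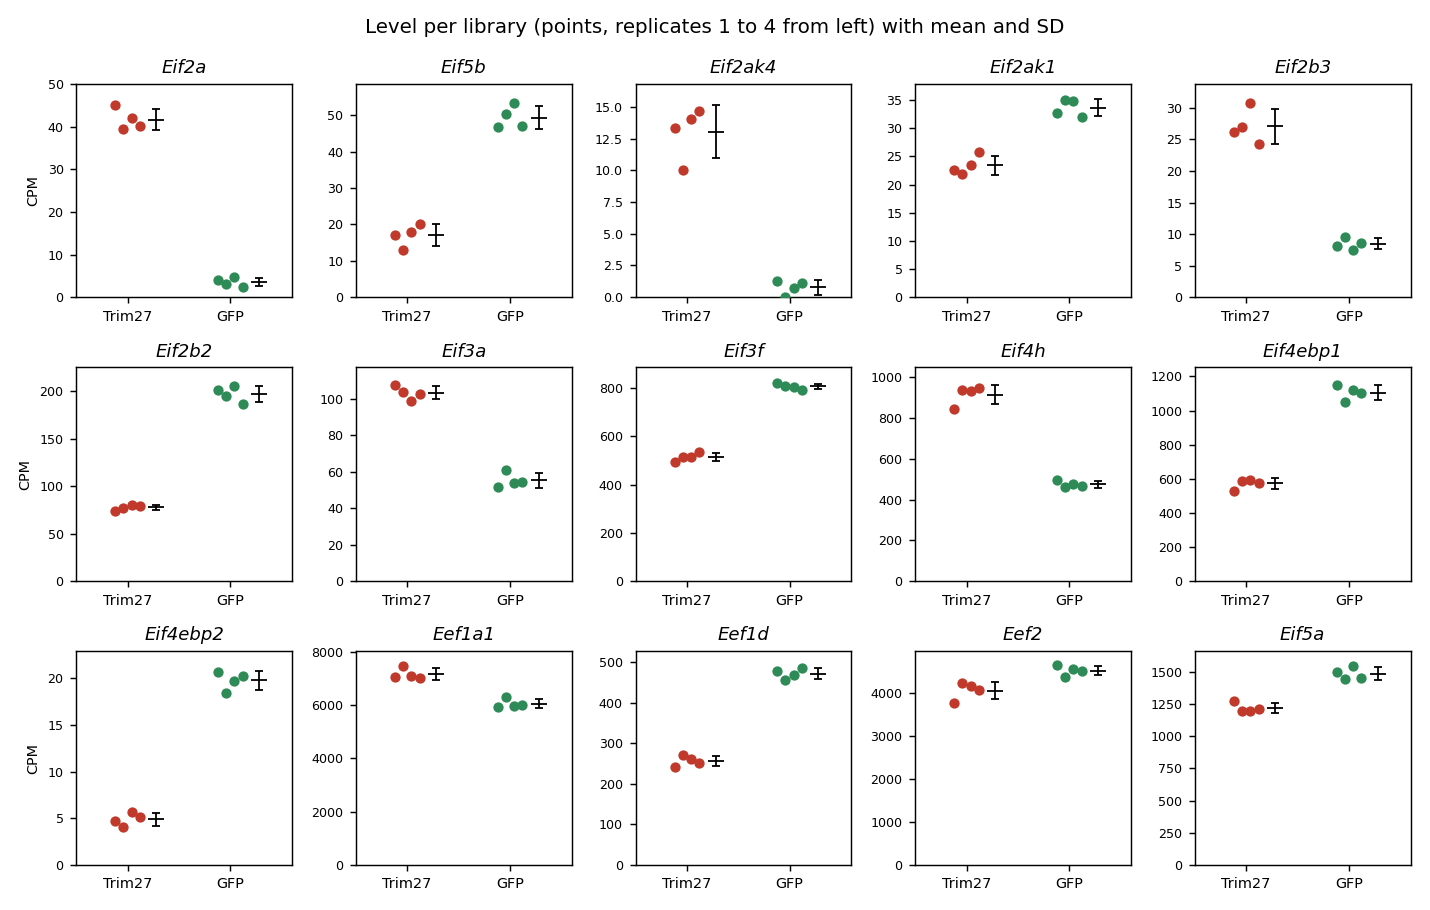
CPM in each library for 15 translation factors, one panel per gene with its own y axis from 0, Trim27 libraries in red to the left and GFP libraries in green to the right, with the mean and SD beside the points. In each panel the 2 groups of 4 points do not overlap. The gaps run from small (Eef1a1, Eef2 and Eif5a) to several times the lower group (Eif2a and Eif2ak4).

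eIF2 kinases slow initiation under stress, and each senses another stress. Eif2ak4, which encodes GCN2, the sensor of amino acid shortage, was at 13.4, 9.99, 14.1 and 14.7 CPM in Trim27 replicates 1 to 4, against 1.26, 0, 0.717 and 1.13 CPM in GFP replicates 1 to 4. It was low in all GFP libraries and had no count in GFP replicate 2, and its log2 fold change was 4.05 ± 0.31 (SE; edgeR adjusted p = 4.14e-12). From 816 counts in the Trim27 libraries and 28 in the GFP libraries the ratio was 16.7, with a 95% exact interval of 11.5 to 25.3 for counting error only. Eif2ak3, which encodes PERK, the sensor of unfolded proteins in the endoplasmic reticulum, was at 4.75, 3.31, 3.26 and 4.84 CPM in the Trim27 libraries and at 1.6, 1.28, 0.239 and 0.206 CPM in the GFP libraries. All Trim27 libraries were above all GFP libraries, but GFP replicates 3 and 4 held 2 counts each, and the ratio over the group was 4.78 (3.27 to 7.24). Its log2 fold change was 2.26 ± 0.39 (edgeR adjusted p = 5.12e-06). Both genes passed the filter on low counts only through the Trim27 libraries.

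Eif2ak1 encodes HRI, the heme-regulated kinase best known from red cell precursors. It had 22.6, 21.9, 23.4 and 25.7 CPM in Trim27 replicates 1 to 4 and 32.8, 35.0, 34.8 and 32.1 CPM in GFP replicates 1 to 4. Here the Trim27 libraries were the lower ones throughout (log2 fold change -0.53 ± 0.09 SE, edgeR adjusted p = 6.74e-06). Aimp2, which shares 8.59% of its exon bases on the other strand, fell by 1.10, and the part of such overlaps was not tested. Of the 7 erythroid markers tested 3 rose and 4 fell, with a lower sum in the Trim27 libraries, and their part in this result was not tested.

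The genes known to act around eIF2 phosphorylation and its effector ATF4 went both ways, with 7 of 15 that rose and 5 that fell, close to the 47.5% and 38% over all genes. Their median log2 fold change of 0.35 turned to -0.24 with the length trend removed, where 3 rose and 9 fell, and with library size alone 10 rose and 2 fell. Chac1, a glutathione-degrading enzyme and an ATF4 target, was at 7.61 ± 0.460 CPM in the Trim27 group, against 59.0 ± 1.18 CPM in the GFP group (SD, n = 4 each), and fell by 2.95 ± 0.10 on the log2 scale. Ddit3, the stress transcription factor CHOP, was at 3.91 ± 1.01 CPM in the Trim27 group and 25.6 ± 1.62 CPM in the GFP group and fell by 2.68 ± 0.16. Asns, asparagine synthetase and also an ATF4 target, moved the other way and rose by 0.87 ± 0.05. These were the 3 with the smallest p. Further genes were picked after their values were seen. Atf4 averaged 844 ± 11.4 CPM in the Trim27 group and 854 ± 13.0 CPM in the GFP group (log2 fold change -0.02 ± 0.04, edgeR adjusted p = 0.716, and 0.29 with library size alone), and Impact, an inhibitor of GCN2 activation, had 1888 counts in the Trim27 libraries and 10 in the GFP libraries (ratio 108, 95% exact interval 58.8 to 226). Impact passed the filter on low counts only through the Trim27 libraries, so it had to differ in this direction.

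eIF3 is the largest initiation factor, a ring of subunits on the small ribosomal subunit. Of its 14 genes 6 rose and 6 fell, beside 47.5% and 38% of all genes, and the median log2 fold change was 0.00. With library size alone the median was 0.31 and 11 rose, and with the length trend removed it was -0.01. All but Eif3a, Eif3f, Eif3j1 and Eif3j2 changed by less than 1.5-fold. Eif3a, the largest scaffold subunit, was at 108, 104, 99.1 and 103 CPM in Trim27 replicates 1 to 4 and at 51.9, 61.1, 54.0 and 54.3 CPM in GFP replicates 1 to 4. The groups were well separated (log2 fold change 0.90 ± 0.07 SE, edgeR adjusted p = 1.8e-13), and 0.20 remained with the length trend removed. Eif3b fell by 0.13 ± 0.05 but came to 0.18 with library size alone, and its call was lost with DESeq2 size factors (-0.10) and without GFP replicate 1 or 3 (-0.11 each). The ratio of Eif3a to Eif3b counts was 0.261 ± 0.0249 in the Trim27 libraries and 0.128 ± 0.0169 in the GFP libraries.

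Eif3f, a subunit with an MPN domain, had 495, 516, 516 and 534 CPM in Trim27 replicates 1 to 4 and 819, 810, 805 and 793 CPM in GFP replicates 1 to 4. The spread within each group was small beside the gap between them, and it fell by 0.65 ± 0.04 (SE; edgeR adjusted p = 3.48e-14). Eif3h, the other MPN subunit, fell by 0.39 ± 0.04, but was at -0.03 and did not pass with the length trend fitted on abundant genes taken out. Eif3m, a PCI subunit that binds next to both, rose by 0.28 ± 0.05. A stretch of 87.7% of the Eif3m transcript matches a processed pseudogene at 97% identity or more, so its counts are uncertain. Eif3i, the most abundant of the class in CPM, was at 1366, 1577, 1565 and 1503 CPM in the Trim27 libraries and at 1882, 1836, 1816 and 1817 CPM in the GFP libraries. It fell by 0.29 ± 0.05 without overlap, but came to 0.01 with library size alone and to 0.18 with the trend with length fitted on abundant genes. Eif3g, which binds Eif3i, fell by 0.21 ± 0.04 and flipped in 4 settings to between 0.03 and 0.27, and Eif3l fell by 0.09 ± 0.04 and flipped in 3 to between 0.03 and 0.21. The call of Eif3l was also lost without GFP replicate 2, 3 or 4 (-0.10 to -0.08).

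The loosely bound subunit eIF3j has 2 genes in the mouse. Eif3j1 was at 30.2, 20.5, 27.4 and 24.1 CPM in Trim27 replicates 1 to 4 and at 12.2, 10.4, 7.77 and 10.3 CPM in GFP replicates 1 to 4. All Trim27 libraries were higher (log2 fold change 1.33 ± 0.14 SE, edgeR adjusted p = 6.06e-10). Eif3j2 had 140 counts in the Trim27 libraries and 11 in the GFP libraries (ratio 7.31, 95% exact interval 3.96 to 15). The whole Eif3j2 transcript matches Eif3j1 at 97% identity or more, so reads could be split between them. Eif3j1 also shares 19.0% of its exon bases with Spg11 on the other strand, and Spg11 rose by 5.69 on the log2 scale to 6.19 CPM in the Trim27 group, against 0.113 CPM in the GFP group. At that GFP level Spg11 could pass the filter on low counts only through the Trim27 libraries, so it had to differ in this direction. The part of this overlap in the values of Eif3j1 was not tested. Among the others Eif3e rose by 0.22 ± 0.07, which came to 0.10 and did not pass without Trim27 replicate 1. Eif3k rose by 0.11 ± 0.05, and its call was lost without any 1 of Trim27 replicates 2 to 4 (0.05 to 0.09) or of GFP replicates 2 to 4 (0.09 to 0.11). Eif3c (-0.01 ± 0.05) and Eif3d (0.02 ± 0.05) did not pass.

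The eIF4 proteins bind the mRNA cap and unwind the leader. Of their 10 genes 7 rose and 1 fell, beside 47.5% and 38% of all genes, with a median log2 fold change of 0.34 that turned to -0.04 with the length trend removed, where 3 rose and 3 fell. Among those that rose Eif4e, Eif4g1 and Eif4g3 turned to -0.14, -0.61 and -0.06 there. Eif4h, which stimulates the helicase eIF4A, was at 844, 939, 932 and 949 CPM in Trim27 replicates 1 to 4 and at 498, 460, 475 and 467 CPM in GFP replicates 1 to 4. Each Trim27 library was far above each GFP library (log2 fold change 0.95 ± 0.05 SE, edgeR adjusted p = 3.63e-17), and the log2 fold change was 0.58 with the length trend removed. Eif4b, the related helicase cofactor, was the 1 gene that fell, by 0.36 ± 0.05, and with library size alone it was at -0.06 and did not pass. The ratio of Eif4h to Eif4b counts was 3.43 ± 0.330 in the Trim27 libraries and 1.38 ± 0.0737 in the GFP libraries.

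The scaffold genes rose to different degrees. Eif4g2, whose product lacks the site for eIF4E and serves cap-independent initiation, had 433, 329, 342 and 358 CPM in Trim27 replicates 1 to 4 and 163, 201, 171 and 183 CPM in GFP replicates 1 to 4. The groups were apart, Trim27 replicate 1 was the highest, and the log2 fold change of 1.03 ± 0.08 (SE; edgeR adjusted p = 8.96e-11) came down to 0.15 with the length trend removed and no longer passed. Eif4g3, a scaffold that does bind eIF4E, was at 44.1, 41.8, 42.3 and 43.9 CPM in the Trim27 libraries and at 25.2, 27.1, 22.7 and 22.6 CPM in the GFP libraries. Its groups did not overlap and its log2 fold change was 0.81 ± 0.09, but its transcript is the longest of the class and the rise was lost with the length trend removed. The main scaffold Eif4g1 rose by 0.14 ± 0.05 only, a call lost without Trim27 replicate 2, 3 or 4 (0.09 to 0.11), and with that trend removed it fell by 0.61 ± 0.05 (edgeR adjusted p = 2.74e-12). The ratio of Eif4g2 to Eif4g1 counts was 1.08 ± 0.168 in the Trim27 libraries, with 1.33 in replicate 1 and 0.976 to 1.01 in the others, and 0.582 ± 0.0689 in the GFP libraries.

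Among the helicases Eif4a2 rose by 0.87 ± 0.09 to 73.7 ± 11 CPM in the Trim27 group, against 40.5 ± 3.33 CPM in the GFP group (SD, n = 4 each). Eif4a1, the main helicase, did not pass at 638 ± 9.95 CPM in the Trim27 group and 596 ± 36.6 CPM in the GFP group. Its log2 fold change of 0.10 (edgeR adjusted p = 0.0527) passed in 9 of 20 other settings, with 0.40 at most, and turned to -0.03 with the length trend removed. A stretch of 68.7% of its transcript matches the pseudogene Eif4a-ps4. The ratio of the pseudogene's counts to those of Eif4a1 was 0.139 ± 0.00357 in the Trim27 libraries and 0.143 ± 0.0131 in the GFP libraries, and the groups overlapped. Eif4a3, which serves the exon junction complex, rose by 0.13 ± 0.05, and its call was lost without Trim27 replicate 2, 3 or 4 (0.09 to 0.10) or GFP replicate 3 (0.11). Eif4e, the cap-binding protein, was at 78.0 ± 9.0 CPM in the Trim27 group and 53.4 ± 3.63 CPM in the GFP group (log2 fold change 0.55 ± 0.08), while Eif4e2, a cap-binding protein known for repression, had a log2 fold change of -0.02 ± 0.05.

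The E-box CACGTG, which reads the same on both strands and is bound by MYC and its relatives, stands in the promoters of Eif4e, Eif4g1 and Eif4h, which rose, and of Eif4a1, and windows from RefSeq (GRCm38.p6) are shown to let these sites of the cap-binding genes be compared. They are chr3:138527192-138527221 on the plus strand, chr16:20672661-20672690 on the plus strand, chr5:134639488-134639517 on the minus strand and chr11:69672595-69672624 on the minus strand, and capitals mark the E-box.
Eif4e: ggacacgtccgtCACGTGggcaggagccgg
Eif4g1: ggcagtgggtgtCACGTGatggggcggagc
Eif4h: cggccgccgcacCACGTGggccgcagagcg
Eif4a1: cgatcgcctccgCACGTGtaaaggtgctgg

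It was found in 12 of the 46 promoters (26.1%), in 12.3% of those of tested genes and in 8.09% of all promoters. The 12 factors with an E-box had a median log2 fold change of 0.12 and the 34 without it 0.13, which lie close together. Over the tested genes the medians were 0.29 with an E-box and 0.24 without it.

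**Figure D4:**
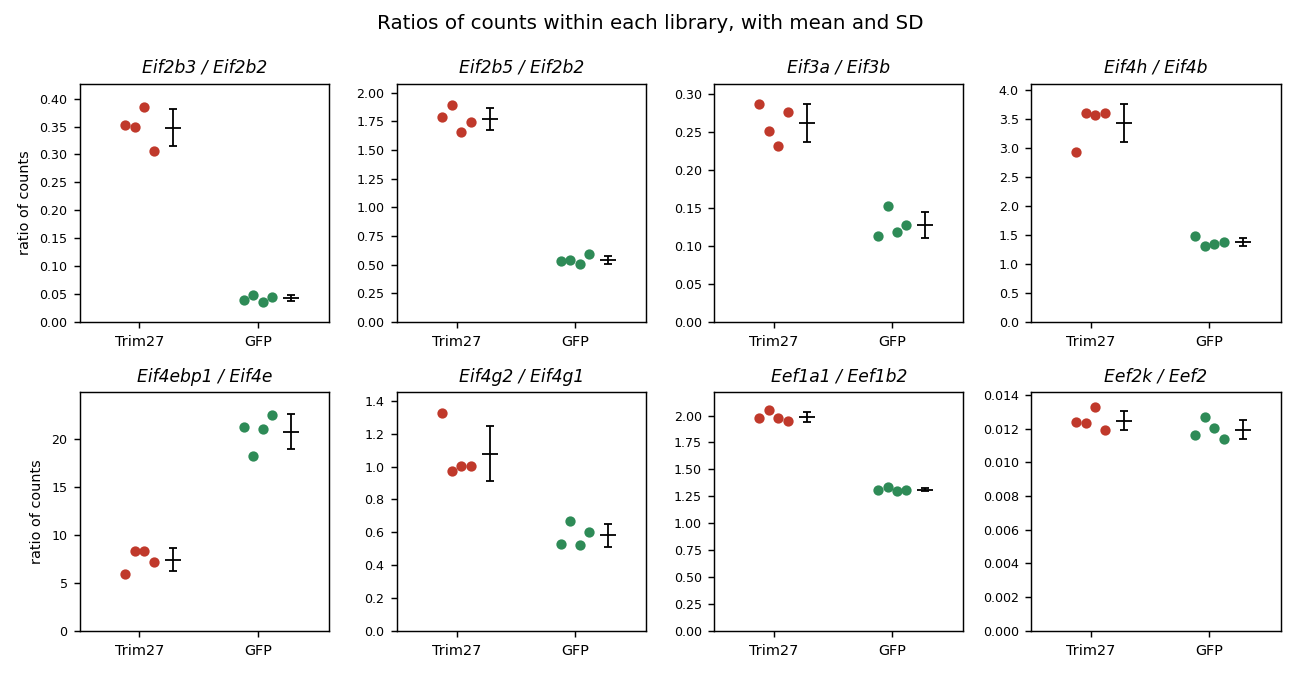
Ratio of the counts of 2 translation factor genes in each library (y axis, from 0), for 8 pairs, Trim27 libraries in red to the left and GFP libraries in green to the right, with the mean and SD. The groups do not overlap for the first 7 pairs, such as Eif2b3 to Eif2b2 with 0.306 to 0.385 in the Trim27 libraries and 0.0366 to 0.0490 in the GFP libraries. They do overlap for Eef2k to Eef2.

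The eIF4E-binding proteins hold eIF4E away from its scaffold until mTORC1 phosphorylates them. Eif4ebp1 was at 529, 589, 595 and 577 CPM in Trim27 replicates 1 to 4 and at 1151, 1050, 1122 and 1101 CPM in GFP replicates 1 to 4. The Trim27 libraries were all far below the GFP libraries (log2 fold change -0.95 ± 0.05 SE, edgeR adjusted p = 2.82e-17). Eif4ebp2 had 4.69, 4.03, 5.69 and 5.18 CPM in the Trim27 libraries, against 20.7, 18.4, 19.7 and 20.3 CPM in the GFP libraries. This was the largest fall among the factors, with a log2 fold change of -2.01 ± 0.15 (SE; edgeR adjusted p = 2.43e-13). The count of Eif4ebp1 per count of Eif4e was 7.44 ± 1.17 in the Trim27 libraries and 20.8 ± 1.84 in the GFP libraries. Eif4enif1, which carries eIF4E into the nucleus and to repressed mRNAs, was at 108, 109, 98.2 and 103 CPM in the Trim27 libraries and at 89.2, 96.4, 87.0 and 96.6 CPM in the GFP libraries. Its groups came within 2 CPM of each other without overlap, and its log2 fold change of 0.18 ± 0.06 turned to -0.34 with the length trend removed and was 0.12, without a call, without Trim27 replicate 2.

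Upstream, in the path from mTORC1 to eIF4E and S6 kinase, 9 of 15 genes rose and 3 fell, beside 47.5% and 38% of all genes, with a median log2 fold change of 0.43 that came down to 0.03 with the length trend removed. Tsc2, which holds mTORC1 in check, was at 83.7 ± 5.87 CPM in the Trim27 group and 12.7 ± 1.63 CPM in the GFP group (log2 fold change 2.73 ± 0.09). Rps6kb2, an S6 kinase, was at 59.8 ± 3.36 CPM in the Trim27 group and 8.41 ± 1.82 CPM in the GFP group (2.83 ± 0.11). Rptor, the mTORC1 subunit that recruits its substrates, rose by 1.81 ± 0.08. These 3 had the smallest p. Larger changes, named after the values were seen, were those of Tsc1, the partner of Tsc2, with 509 counts in the Trim27 libraries and 8 in the GFP libraries, and of Pdcd4, an inhibitor of eIF4A, with 219 and 10 counts in the same groups. Tsc1 and Pdcd4 passed the filter on low counts only through the Trim27 libraries, so they had to differ in this direction. Among poly(A)-binding and cap-adjacent factors 9 of 16 rose and 5 fell, beside the same background, and the median of 0.44 turned to -0.11 with the length trend removed. Ncbp2, the small nuclear cap-binding subunit, fell by 1.53 ± 0.05 and Mcts1, which helps to recycle small subunits, by 1.63 ± 0.08, and Pabpc1, the main cytoplasmic poly(A)-binding protein, rose by 0.72 ± 0.04 to 1327 ± 29.6 CPM in the Trim27 group, against 805 ± 23.9 CPM in the GFP group.

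eIF5A carries the modified lysine hypusine and helps ribosomes past difficult stretches such as runs of proline. Eif5a was at 1277, 1196, 1196 and 1210 CPM in Trim27 replicates 1 to 4 and at 1502, 1446, 1549 and 1457 CPM in GFP replicates 1 to 4. All Trim27 libraries were lower (log2 fold change -0.29 ± 0.04 SE, edgeR adjusted p = 4.68e-07), but the value came to 0.02 with library size alone and to 0.01 with the trend with length fitted on abundant genes. Eif5a2, its scarce paralog, had 60, 39, 32 and 38 counts in the Trim27 libraries and 0, 6, 4 and 0 counts in the GFP libraries. The ratio over the groups was 9.70 with a 95% exact interval of 5.15 to 20.6, and the gene passed the filter only through the Trim27 libraries. Of the 9 genes that modify eIF5A and eEF2 8 fell and 1 rose, beside 38% and 47.5% of all genes. Their median log2 fold change was -0.43, and with library size alone it was -0.13 and 4 fell. Dhps, which makes the first step of hypusine, fell by 0.56 ± 0.05. Dph7 and Dnajc24, which act in the synthesis of the diphthamide on eEF2, fell by 2.61 ± 0.12 and 1.58 ± 0.08. Dph7 was at 7.27 ± 1.4 CPM in the Trim27 group and 45.2 ± 4.38 CPM in the GFP group.

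eEF1A brings aminoacyl-tRNA to the ribosome, and its exchange complex of eEF1B subunits reloads it with GTP. Eef1a1 was at 7039, 7481, 7099 and 7021 CPM in Trim27 replicates 1 to 4 and at 5933, 6307, 5956 and 5984 CPM in GFP replicates 1 to 4. Replicate 2 was the highest in both groups, and the groups did not overlap (log2 fold change 0.24 ± 0.04 SE, edgeR adjusted p = 2.32e-06). Of its transcript 87.6% matches other genes, mostly pseudogenes, so its counts are uncertain. The exchange subunits fell. Eef1d had 242, 272, 260 and 252 CPM in the Trim27 libraries and 478, 455, 469 and 485 CPM in the GFP libraries, and Eef1g had 2122, 2272, 2121 and 2074 CPM in the Trim27 libraries and 2974, 3165, 2971 and 3065 CPM in the GFP libraries. Both were lower in every Trim27 library, with log2 fold changes of -0.88 ± 0.05 (edgeR adjusted p = 3.01e-16) and -0.50 ± 0.04 (adjusted p = 5.44e-12). Of the Eef1g transcript 72.0% matches other genes at 97% identity or more, the closest a processed pseudogene, so its counts are uncertain too. Eef1b2 fell by 0.35 ± 0.04, but with library size alone it was at -0.05 and did not pass (edgeR adjusted p = 0.165). The ratio of Eef1a1 to Eef1b2 counts was 1.99 ± 0.0444 in the Trim27 libraries and 1.31 ± 0.0146 in the GFP libraries.

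Eef1e1, whose product belongs to the multi-tRNA synthetase complex, was at 60.7, 59.1, 52.8 and 54.7 CPM in Trim27 replicates 1 to 4 and at 26.4, 27.9, 27.6 and 33.3 CPM in GFP replicates 1 to 4. It was higher in every Trim27 library (log2 fold change 0.98 ± 0.09 SE, edgeR adjusted p = 1.28e-11). Eef2, which moves the ribosome from codon to codon, had 3767, 4227, 4161 and 4080 CPM in the Trim27 libraries and 4646, 4384, 4554 and 4503 CPM in the GFP libraries. The groups were close but did not overlap, and its log2 fold change of -0.16 ± 0.04 (SE; edgeR adjusted p = 0.00139) turned to 0.15 with library size alone and to 0.08 among abundant genes only. Eef2k, the kinase that switches eEF2 off, was at 50.7 ± 3.72 CPM in the Trim27 group and 53.9 ± 1.84 CPM in the GFP group and did not pass. Its ratio to Eef2 was 0.0125 ± 0.000556 in the Trim27 libraries and 0.0119 ± 0.000558 in the GFP libraries, with overlap.

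Levels of different genes can be set side by side only per length. Per kilobase of the longest coding transcript Eef1a1 had the highest level, 3991 CPM per kilobase in the Trim27 group and 3370 in the GFP group. Eef1b2 followed with 1857 and 2374 in the same groups, Eif3i with 1338 and 1637, Eef2 with 1314 and 1464, and Eef1g with 1152 and 1633. This order is that of the Trim27 group, and in the GFP group Eef1g was above Eef2. The lowest was Eif5a2 with 0.545 CPM per kilobase in the Trim27 group and 0.0555 in the GFP group. Next above it came Eif4ebp2 with 0.847 in the Trim27 group, and Eif3j2 with 0.128 in the GFP group.

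TOP mRNAs begin with a cytosine and a run of pyrimidines and are translated under the control of mTORC1. They include the ribosomal protein mRNAs and, among the factors, 9 genes known as TOP mRNAs. Of these 9, Eef1a1 and Eif3e rose and Eef1b2, Eef1d, Eef1g, Eef2, Eif3f, Eif3h and Eif4b fell, with a median log2 fold change of -0.36, which was -0.06 with library size alone. Among the other 48 factors 26 rose and 15 fell, near the 47.5% and 38% over all genes, with a median of 0.14 that turned to -0.13 with the length trend removed. The ribosomal protein share given above was also lower in the Trim27 libraries, and the most abundant genes of all kinds mostly fell. The part of level in the values of the TOP genes was not tested.

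Of the known TOP genes 5 had a RefSeq promoter, and only Eif3f and Eef1a1 among them had a run of at least 9 pyrimidines near the annotated start. Eef2 and Eef1b2 had a promoter without such a run, so the run searched for does not mark the TOP genes listed here. The promoters of Eif3f and Eef1a1 are shown because their changes went in opposite directions although both have a pyrimidine run at the annotated start. That of Eif2s3x, which is not on the TOP list, is shown because its run is longer than theirs. The windows of GRCm38.p6 are chr7:108934404-108934433 on the plus strand, chr9:78481710-78481739 on the minus strand and chrX:94212634-94212663 on the minus strand, and capitals mark the run of C and T.
Eif3f: ttctaggCTCTCTCTCTTTCTCggcaagat
Eef1a1: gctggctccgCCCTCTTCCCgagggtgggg
Eif2s3x: ccgagcaTTTTCCTTTTCTCTCCgagcaag

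A run of at least 9 pyrimidines between 20 bases before and 50 after the start stood in 12 of the 46 promoters (26.1%), in 19.0% of those of tested genes and in 19.7% of all. The 12 factors with a run had a median log2 fold change of 0.26 and the 34 without it 0.06. Over the tested genes the medians were 0.25 with a run and 0.24 without it.

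Log2 fold changes were higher for longer transcripts across the bins below, although the correlations were low. The 18 factors with a transcript of 1000 to 2000 bases had a median log2 fold change of -0.25, the 23 from 2000 to 4000 bases 0.14 and the 14 from 4000 to 8000 bases 0.72. Over all genes tested the medians in these bins were -0.03, 0.32 and 0.63. They were -0.67 under 1000 bases and 0.74 at 8000 bases or more, in bins that held 1 factor each. Across the 57 factors, which share the libraries and are not independent replicates, Pearson's r of the log2 fold change with log2 length was 0.22 and Spearman's rho 0.257, beside 0.181 and 0.252 over 10991 genes. The part of length in the changes was not tested further.

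**Figure D5:**
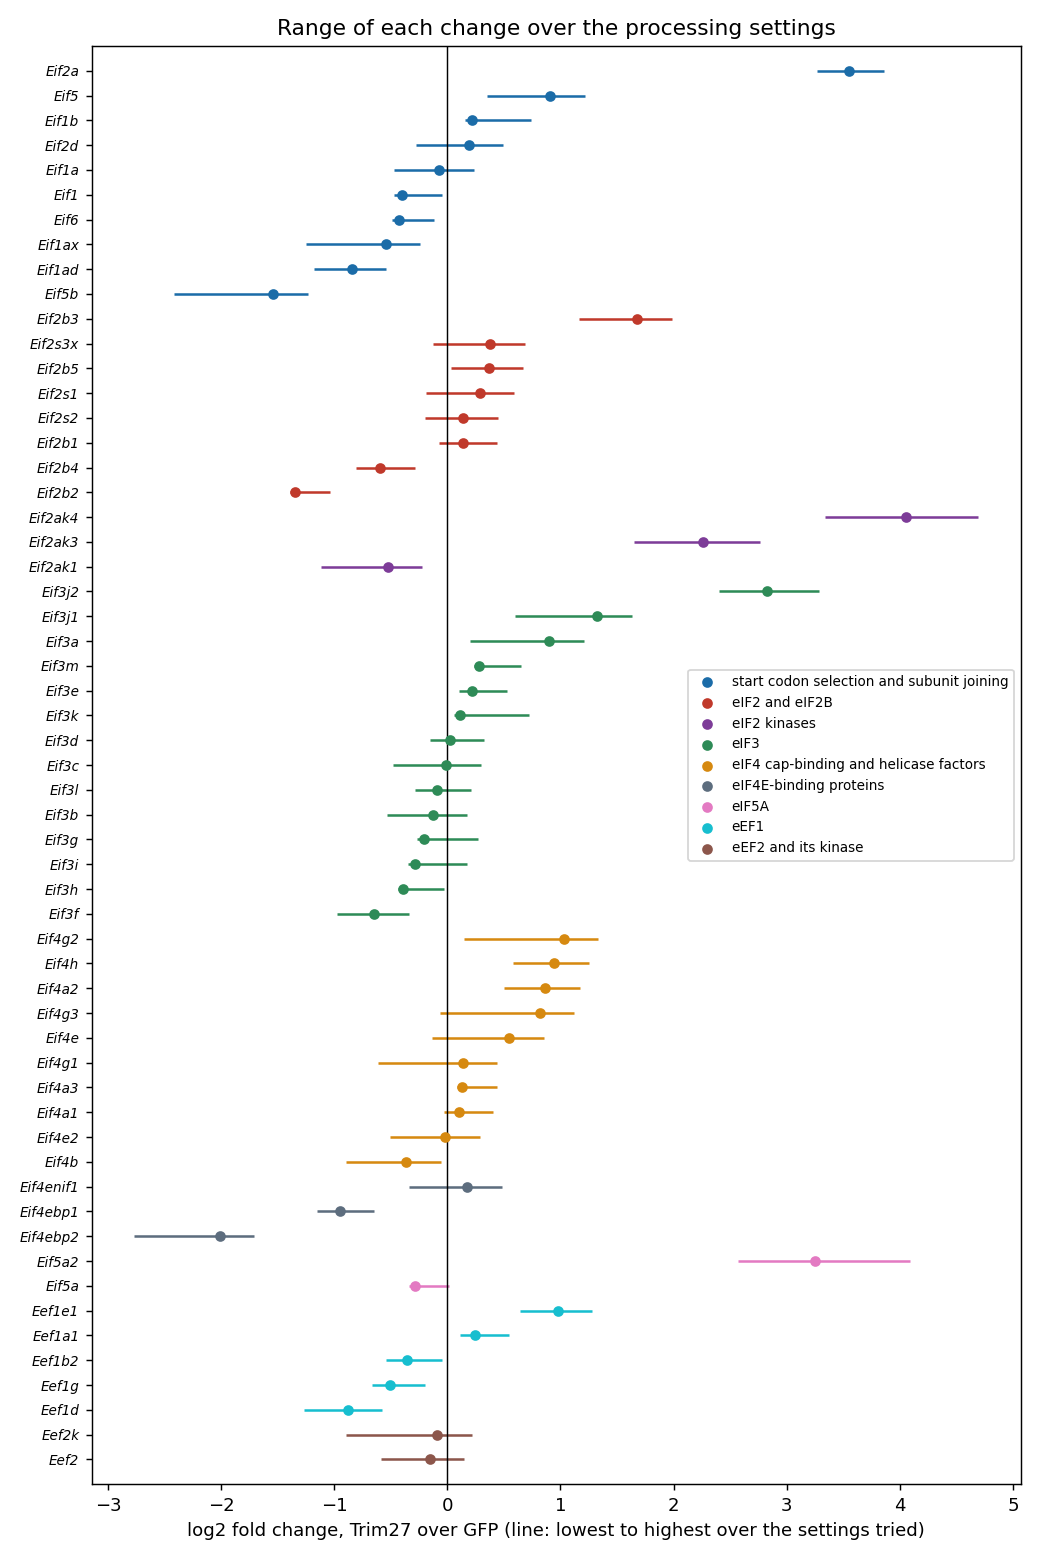
Log2 fold change (Trim27 over GFP, x axis) of each translation factor in the reported fit (point) and its lowest and highest value over the 20 alternative settings (line), ordered by role. Lines that cross 0 belong to genes whose direction depends on the setting, such as Eif4g1, Eif4e, Eif2s1 and Eef2. Those of Eif2a, Eif2ak4, Eif2b3, Eif2b2, Eif5b and Eif4ebp2 stay far from it.

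The factors that end translation or serve special codons and mitochondria were looked at beside the cytosolic factors. Among 10 genes of termination and recycling 7 rose and 1 fell, beside 47.5% and 38% of all genes, with a median log2 fold change of 0.32 that turned to -0.30 with the length trend removed. Gspt2, an intronless relative of the release factor eRF3, had 408 counts in the Trim27 libraries and none in the GFP libraries, where a count of 0 allows up to 3 counts over the 4 libraries, so it was at least 78.1-fold higher in the Trim27 group. It passed the filter on low counts only through the Trim27 libraries, so it had to differ in this direction. Pelo, which rescues stalled ribosomes, rose by 0.83 ± 0.07, and Abcf1, an ATP-binding protein that acts with eIF2, fell by 0.50 ± 0.05. Of 11 mitochondrial translation factors 5 rose and 3 fell, and their median of 0.13 turned to -0.35 with that trend removed and to -0.34 among the 3 abundant ones. Mrrf, the mitochondrial ribosome recycling factor, was at 38.6 ± 0.999 CPM in the Trim27 group, against 0.995 ± 0.677 CPM in the GFP group (SD, n = 4 each), and Tsfm, the exchange factor of the mitochondrial elongation factor Tu, rose by 1.38 ± 0.06. The elongation factor itself, Tufm, fell by 0.64 ± 0.05. Of 8 genes for selenocysteine incorporation 4 rose and 2 fell, and their median of 0.14 turned to -0.09 among the 4 abundant ones. Sephs1, a selenophosphate synthetase homolog, rose by 2.65 ± 0.11, and Secisbp2l had 553 counts in the Trim27 libraries and 13 in the GFP libraries (ratio 24.4, 95% exact interval 14.2 to 46.2). Mrrf and Secisbp2l passed the filter on low counts only through the Trim27 libraries, so they had to differ in this direction. Eefsec, the elongation factor for selenocysteine, fell by 0.87 ± 0.06. Over all these lists 41 of 83 genes rose and 27 fell, near the 47.5% and 38% over all genes tested. The 41 include genes that passed the filter on low counts only through the Trim27 libraries.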

How the data were processed

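RNA of 8 libraries (4 per group) was sequenced, and the authors deposited raw counts for every gene symbol and library in 1 table. Per the submitters' processing notes bcl2fastq, HISAT2, featureCounts and the build NCBIM37 were used. The sources used here do not give versions, annotation, strand setting or how multiply matching reads were treated. Even values made up 64.7% to 67.0% of the counts from 1 to 10 in the Trim27 libraries and 68.4% to 72.0% in the GFP libraries. Had each pair been counted as 2 reads, counting intervals would be too narrow. Intervals and floors cover counting error only. The table held 1 row without a gene name, with 0 counts, which was left out.

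The main test was edgeR 4.0.16 under R 4.3.3. Low genes were dropped by filterByExpr (minimum count 10, minimum total count 15), scaled by TMM and tested 2-sided by the robust quasi-likelihood test, with no covariate and Benjamini-Hochberg adjustment over 11040 genes. CPM are relative to the TMM-scaled library size. The test was checked on simulated counts in which a small part of the genes was raised or lowered at random. In these data 85.5% of the genes tested passed. The check therefore cannot tell how scaling and calls behave under so wide a shift. DESeq2 1.42.0 and limma 3.58.1 served as alternatives, besides other scalings, filters, glmTreat for a change above 1.5-fold, halved counts, the replicate number as a block, each library left out in turn, and a lowess offset (span 0.4) that removes each library's trend with transcript length. Lengths, exon overlaps and near-identical copies (97% identity over at least 50 bases) came from GENCODE M21 (GRCm38), and promoters from RefSeq (GRCm38.p6). That build is not the one of the counts, so no coordinates of the counts are given.

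The gene lists, the role classes and the members were chosen with earlier results of these data known. Values in every library are given for up to 4 genes of each role class, namely the 3 past the threshold with the smallest p and the most abundant one, and of each other list the 3 with the smallest p are named. Counts within a list are read beside the shares over all genes tested, and no test of a list was made.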

Additional observations from a re-analysis of the deposited data

Results flagged for a closer look

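In 10 of 114 groups of 4 libraries (57 genes in 2 groups) the gap of the highest or lowest library to its nearest neighbour was more than 0.829 of the whole range, and chance alone gives about 1 in 20. Trim27 replicate 1 was the library in 5 of them, with 3 high and 2 low. It was high for Eif1ax (576 CPM, the others 477 to 492), for Eif2s2 (195 CPM, the others 134 to 142) and for Eif4b (288 CPM, the others 260 to 264). It was low for Eif4a3 (495 CPM, the others 537 to 541) and for Eif4h (844 CPM, the others 932 to 949). Trim27 replicate 2 was high for Eef1a1 (7481 CPM, the others 7021 to 7099), and Trim27 replicate 3 for Eif3j2 (2.54 CPM, the others 2.05 to 2.12). In the GFP group replicate 2 was high for Eef1a1 (6307 CPM, the others 5933 to 5984). GFP replicate 1 was low for Eif1 (553 CPM, the others 602 to 611), and GFP replicate 4 was low for Eif3d (417 CPM, the others 440 to 444).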

How the results depend on the processing

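Of the 57 factors 28 rose and 22 fell. Requiring a change above 1.5-fold (glmTreat) left 14 and 7, and over all genes it left 57.5% called. Once the length trend was taken out 18 rose and 29 fell (39.8% and 44.1% of all genes). Library size alone gave 39 that rose and 13 that fell (56.9% and 28.1%). A fit of abundant genes (6 log2 CPM or more), which kept 42 factors, gave 25 and 13 (43.3% and 42.5%). With the length trend fitted on those genes taken out 32 rose and 15 fell (53.6% and 29.6%). In at least 1 alternative other than glmTreat 16 factors kept their direction but lost their call, and 7 gained one. Without 1 library in turn 23 to 28 rose and 20 to 23 fell. The median of 0.11 became -0.19 with the length trend removed, 0.14 with DESeq2 size factors, with the DESeq2 Wald test and without a filter, 0.16 with upper-quartile factors, 0.41 with library size alone, and 0.22 both among abundant genes and with their length trend removed. Without 1 library it ranged from 0.055 to 0.12. Role classes with a median above 0 numbered 5, and 2 with the length trend removed. Those 2 were the eIF2 kinases and eIF5A. Their medians rest on Eif2ak3, Eif2ak4 and Eif5a2, which passed the filter on low counts only through the Trim27 libraries and so had to rise. Of the 83 other genes 41 rose and 27 fell. The counts were 24 and 11 with glmTreat, 26 and 43 with the length trend removed, and 19 and 10 among the 32 abundant ones. With library size alone 17 fell, and more rose than in the reported fit. The causes of these shifts were not tested beyond what each setting does by construction.

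Log2 fold changes that turned sign in factors called in the reported fit or in the setting named were as follows. With library size alone they were 0.15 (Eef2), 0.22 (Eef2k), 0.23 (Eif1a), 0.18 (Eif3b), 0.29 (Eif3c), 0.10 (Eif3g), 0.013 (Eif3i), 0.21 (Eif3l), 0.28 (Eif4e2) and 0.017 (Eif5a). Among abundant genes they were 0.081 (Eef2), 0.17 (Eif1a), 0.11 (Eif3b), 0.23 (Eif3c), 0.030 (Eif3g), 0.14 (Eif3l) and 0.22 (Eif4e2). With the length trend removed they were -0.0755 (Eif2b1), -0.28 (Eif2d), -0.19 (Eif2s1), -0.13 (Eif2s3x), -0.15 (Eif3d), 0.038 (Eif3g), -0.14 (Eif4e), -0.34 (Eif4enif1), -0.61 (Eif4g1) and -0.062 (Eif4g3). With that of abundant genes removed they were 0.27 (Eif3g), 0.18 (Eif3i), 0.034 (Eif3l) and 0.0059 (Eif5a). Factors without a call in both fits turned sign too and are not listed in full. Examples are Eif2s2 (-0.20) and Eif4a1 (-0.03) with the length trend removed. Eif2s2 (-0.04) and Eif3d (-0.04) also turned when 1 library was left out.

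Libraries with the same replicate number did not deviate together (correlations of -0.03 to 0.02 over the 4 pairs). This cannot tell whether they were paired, since a pairing that adds little spread would look the same. With the replicate number as a block 26 factors rose and 20 fell, the median was 0.11, and 4 calls were lost.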
